A study of Mus musculus with 2 samples.

Results

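Cathepsins are proteases of the lysosome, and cystatins are small proteins that block the cysteine cathepsins. The genes described here are 7 cathepsins (Ctsb, Ctsc, Ctsd, Ctsk, Ctsl, Ctss and Ctsz) and 2 cystatins (Cst3 and Cstb), taken by symbol, 9 of the 32285 genes in the matrix. Their UMIs (unique molecular identifiers, counts of captured transcripts) were measured in CD45+ immune cells sorted from full-thickness mouse skin that had been digested with Liberase TM. One group was control skin on day 0 and the other was skin on day 2 after challenge with DPCP (diphenylcyclopropenone, a hapten that provokes contact hypersensitivity); strain, sex and number of mice are not given in the sources used here. Cells of both groups carried different oligonucleotide tags and went through droplet 3' sequencing as 1 pool, so each condition is 1 tagged sample, no test between conditions was possible, and the 95% intervals below reflect counting error and no spread between animals.

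Control cells kept after filtering numbered 4967 (median 8797 UMIs) and DPCP cells 7588 (median 4728 UMIs), and the conditions shared 0 barcodes. Neutrophil-like cells made up 2.23% of control and 64.7% of DPCP cells. Levels are in CPM, the usual depth-scaled level, here a gene's UMIs over all summed UMIs of a class, a ratio is DPCP over control, and a gene is said to have risen or fallen only where the ratio was at least 2 or at most 0.5 with an interval that excludes 1. That rule was applied to genes with at least 50 summed UMIs and 20 CPM in the higher condition, which Ctsk passed in macrophage-like cells only. A gene low in control can pass that minimum through its DPCP level alone, as Ctsk did there and Ctsl did in Langerhans cell-like, monocyte-like, T cell-like, both compared dendritic classes and cluster 2, so counts and medians over the genes measured are descriptions. Cells were clustered without the 9 genes, and a class was compared where it had at least 50 cells in each condition. Each named class compared held all of its own markers above 0. RNA of the neutrophil genes S100a8 and S100a9 was also found in every other class compared and was higher there after DPCP.

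Cysteine cathepsins cut proteins with a cysteine in the active site and work best in the acid of the endosome and lysosome. Cathepsin S trims the invariant chain from MHC class II in antigen-presenting cells, cathepsin L does so in other cells and also matures other lysosomal enzymes, and cathepsin B is a broadly expressed endo- and exopeptidase. Cathepsin C (dipeptidyl peptidase 1) activates the serine proteases of neutrophil, mast cell and cytotoxic granules, cathepsin K degrades collagen and is best known from osteoclasts, cathepsin Z is a carboxypeptidase, and cathepsin D is an aspartic protease that cystatins do not block. Cystatin C, encoded by Cst3, is secreted and is abundant in dendritic cells, while cystatin B (stefin B, encoded by Cstb) stays inside the cell. The genes of lysosomal proteins often carry the motif CACGTG, the core of the element read by the transcription factors TFEB, TFE3 and MITF.

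In the mm10 build with GENCODE M21, Ctsb lies on chromosome 14 (63122462 to 63145923), Ctsc on 7 (88278085 to 88310888), Ctsd on 7 (142375911 to 142388038), Ctsk and Ctss close together on 3 (95499256 to 95509362 and 95526786 to 95556403), Ctsl on 13 (64359337 to 64370890), Ctsz on 2 (174427493 to 174439039), Cst3 on 2 (148871722 to 148875692) and Cstb on 10 (78425669 to 78427622). All are protein-coding. Annotated genes overlap 3 of them on the same strand (Gm49369 with Ctsd, Gm49230 with Ctsl, Hmgb1-ps5 with Ctss). Fdft1 overlaps Ctsb, Gm26522 overlaps Ctsc, Gm47123 overlaps Ctsl and Nelfcd overlaps Ctsz on the opposite strand, and whether counting used strand is not stated in the labels. RefSeq promoters of the GRCm38.p6 assembly (250 bases before to 50 after the start) matched 7 of the 9 genes, all but Ctsb and Cstb. CACGTG, searched on both strands, stood in 2 of those 7 promoters, Ctsd (at -245 and -98) and Ctsl (at -236), and in 7.15% of all promoters in the table. The longer TCACGTGA, which overlaps the second Ctsd match, stood in 0.974% of all promoters. Positions count from the RefSeq start. For Ctsl the whole window lies inside the GENCODE gene, whose annotated 5' end is at 64370890, so its match is upstream of the RefSeq start but not of that end. For Ctsd the GENCODE 5' end is at 142388038. The Ctsd match at -245 lies upstream of that end, and the one at -98 lies inside the GENCODE gene. The first 2 promoters below are the 2 with a match. Ctsl rose in the most classes and Ctsd rose beside it in Langerhans cell-like cells. The Cst3 promoter, of the gene that moved the other way there, held no match in this window. The promoter of Ctsz, which rose more than Ctsd in Langerhans cell-like cells, also held none. Nor did that of Ctsk, which rose in macrophage-like cells. Capitals mark CACGTG:
Ctsl, chr13:64370471-64370770, minus strand: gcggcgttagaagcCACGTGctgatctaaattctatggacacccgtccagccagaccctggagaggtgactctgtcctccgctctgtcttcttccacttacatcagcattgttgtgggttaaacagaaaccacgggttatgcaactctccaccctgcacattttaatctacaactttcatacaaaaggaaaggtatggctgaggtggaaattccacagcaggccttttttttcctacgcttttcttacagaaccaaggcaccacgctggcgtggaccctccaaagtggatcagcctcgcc
Ctsd, chr7:142387778-142388077, minus strand: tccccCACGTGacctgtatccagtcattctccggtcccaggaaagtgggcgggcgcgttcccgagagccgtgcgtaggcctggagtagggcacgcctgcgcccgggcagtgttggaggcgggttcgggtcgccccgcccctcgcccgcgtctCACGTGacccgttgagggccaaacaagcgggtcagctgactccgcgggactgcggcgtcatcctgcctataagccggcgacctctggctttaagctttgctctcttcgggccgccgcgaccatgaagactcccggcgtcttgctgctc
Cst3, chr2:148875463-148875762, minus strand: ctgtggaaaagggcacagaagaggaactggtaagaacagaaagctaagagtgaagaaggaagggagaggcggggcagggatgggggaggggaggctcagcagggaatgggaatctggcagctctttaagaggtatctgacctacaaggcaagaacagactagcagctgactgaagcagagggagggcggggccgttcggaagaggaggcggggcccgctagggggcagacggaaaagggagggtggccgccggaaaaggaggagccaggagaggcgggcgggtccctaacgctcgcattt
The letters TGACTCA, an AP-1 site, stood in 0 of the 7 promoters and 5.20% of all, and AGGAAGT, a site of the PU.1 type, in 2 of the 7 (Ctsc and Ctss) and 9.35% of all. A match is a description of the sequence and does not show binding.

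In control skin the 9 genes were unevenly spread over 14 classes and unnamed clusters. Ctsb was highest in macrophage-like cells (2519 CPM, 2443 to 2597) and lowest in neutrophil-like cells (137 CPM, 97.5 to 186), and Ctsc (1309 CPM), Ctsd (1304 CPM) and Ctsl (199 CPM, 177 to 221) were also highest in macrophage-like cells. Ctss led in cluster 5 (2115 CPM), which carried 8 of 10 macrophage markers but stayed unnamed because the monocyte marker Ly6c2 was among its leading genes. For Ctsz, cluster 5 (702 CPM), macrophage-like cells (685 CPM) and cluster 1 (683 CPM) did not differ beyond counting error. The inhibitors had another order. Cst3 was highest in mature dendritic cell-like cells (9346 CPM, 9124 to 9571), then Langerhans cell-like (4247 CPM) and conventional dendritic cell type 1-like cells (3688 CPM), and lowest in T cell-like cells (519.7 CPM). Cstb was also highest in mature dendritic cell-like cells (434 CPM), while Ctsk lay between 0 and 3.44 CPM in all 14, with no neighbours that differed.

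**Figure D1:**
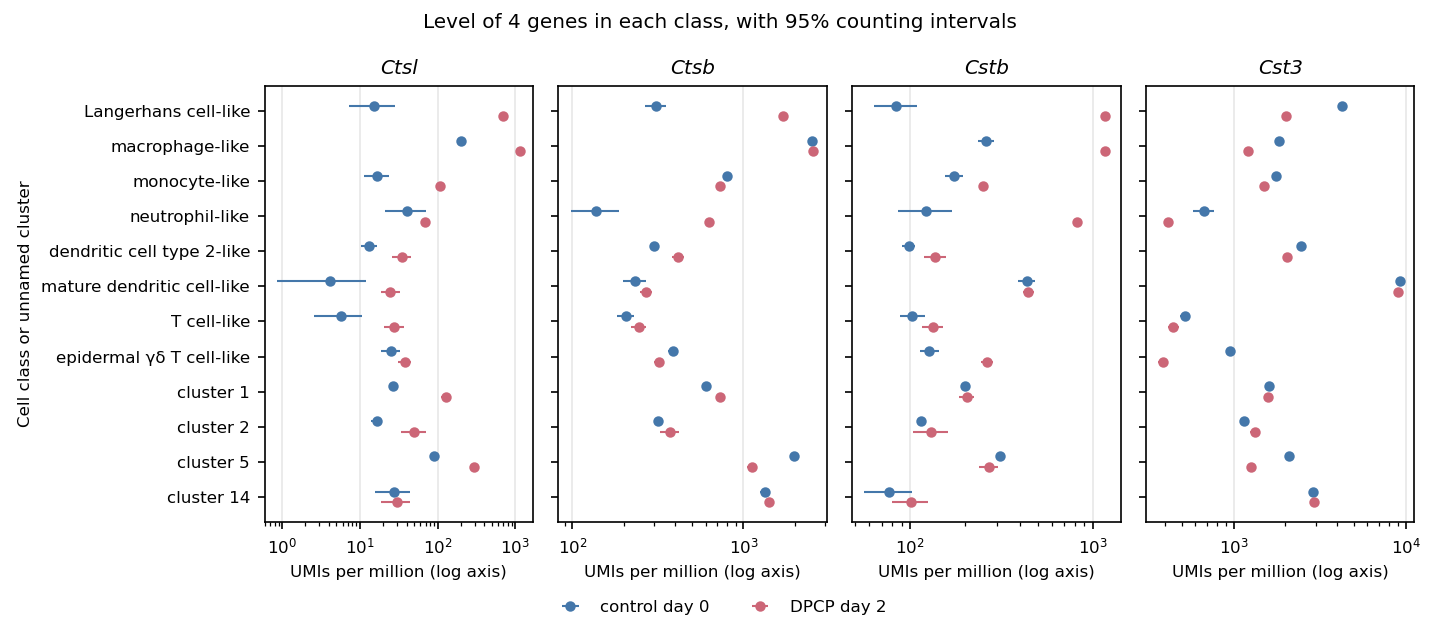
Levels of Ctsl, Ctsb, Cstb and Cst3 (CPM, log axis) in 8 named classes and 4 unnamed clusters, control day 0 in blue and DPCP day 2 in red, with 95% counting intervals. Ctsl lies further right after DPCP in most rows, and Cst3 is highest in mature dendritic cell-like cells in both conditions.

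Langerhans cell-like cells, named for the antigen-presenting cells of the epidermis, showed the most changes of any class compared. Of the 8 genes measured there, 5 rose and 1 fell, where 12.2% of 6915 genes rose and 8.78% fell. The median log2 ratio of the 8 was 1.88, against 0.10 over all genes tested. The class had 56 control and 123 DPCP cells.

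Ctsl was close to absent in control Langerhans cell-like cells, with 10 UMIs or 15.4 CPM (7.36 to 28.2). After DPCP it reached 1255 UMIs, or 687 CPM (649.5 to 726), which put the ratio at 44.7 (24.3 to 93.5). The control level rests on few UMIs, so the size of this ratio is loosely bounded. Ctsb, at 306 CPM (265 to 351) in control, rose 5.60-fold to 1711 CPM (1651 to 1772). Ctsz rose 5.73-fold (4.88 to 6.77), from 243 to 1390 CPM, which placed this class first for Ctsz after DPCP. The aspartic protease gene Ctsd rose less, from 117 to 283 CPM (ratio 2.43, 1.90 to 3.13). Ctss, the protease of MHC class II loading in these cells, went from 677 to 921 CPM (ratio 1.36) and Ctsc from 201 to 218 CPM (ratio 1.08), neither past the rule.

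The inhibitors parted in the same cells. Cstb rose 13.8-fold (10.6 to 18.4): control cells had 84.4 CPM (63.6 to 109.9) and DPCP cells 1167 CPM (1118 to 1218). Cst3 fell to 0.474 of its control level (0.451 to 0.498), with 4247 CPM before and 2011 CPM after. The median cell had 4438 CPM of Cst3 in control and 906 CPM after DPCP, and 59.8% of the DPCP Cst3 UMIs lay in the 10% of cells with the most. Ctsl was also uneven among DPCP cells: the highest 10% held 63.2% of its UMIs and the median cell had 67.9 CPM. Ctsb, Ctsz and Cstb were spread more evenly, with 28.8%, 27.7% and 27.3% in the highest 10%.

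**Figure D2:**
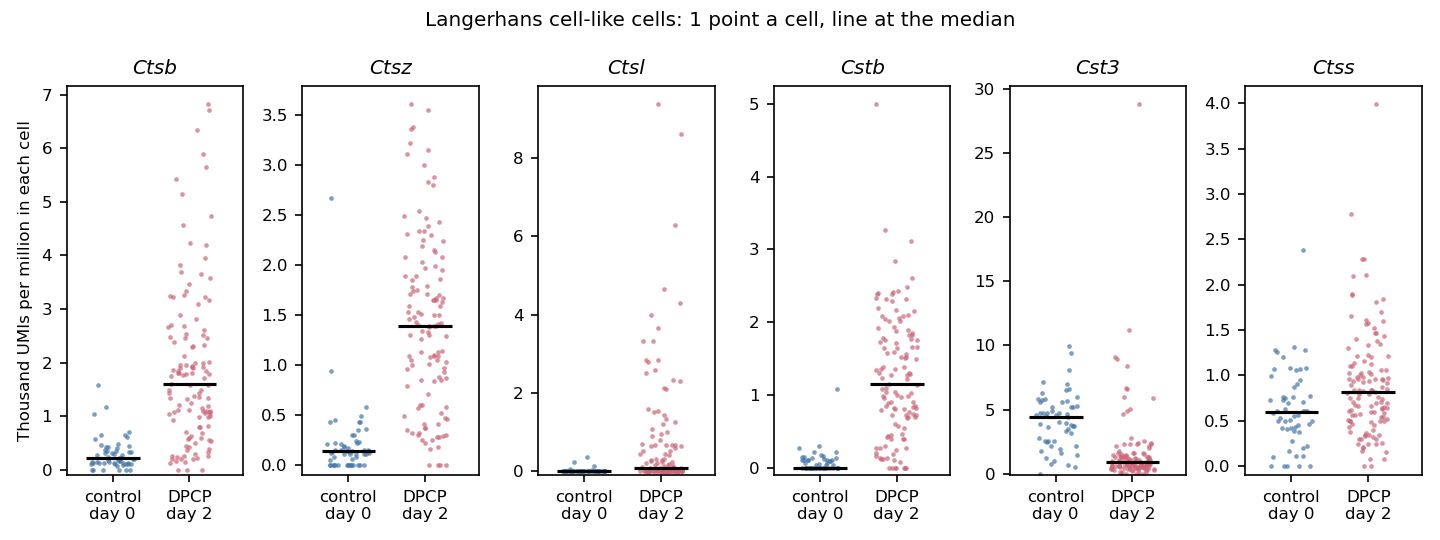
Counts per 1000 UMIs on a linear axis of its own for each gene, in single Langerhans cell-like cells (56 control in blue, 123 DPCP in red), with the median as a line. Most DPCP cells lie above the control cells for Ctsb, Ctsz and Cstb and below them for Cst3, while a minority of DPCP cells holds most Ctsl.

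Thinned to 1000 UMIs a cell, Ctsl was found in 0 of 56 control cells, which allows up to 6.38% of cells with a Ctsl UMI among 1000 (exact binomial bound, for thinned cells only), and in 23.6% of DPCP Langerhans cell-like cells (16.4 to 32.1). Without thinning the shares were 8.93% and 56.9% at median depths of 9896 and 13588 UMIs. In T cell-like cells, taken as a class of low Ctsl, the thinned shares were 0% and 2.13%, and the unthinned shares 4.43% and 14.8% at medians of 7471 and 9686 UMIs. The thinned share for Cstb went from 1.79% to 66.7%, for Ctsb from 16.1% to 70.7%, for Ctsz from 12.5% to 62.6% and for Cst3 from 91.1% to 52.0%.

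The class itself differed between the conditions. Its 7 own markers summed to 2294 CPM in control and 1619 CPM after DPCP with 0 of them absent: Cd207 (langerin) went from 620.3 to 511 CPM and Epcam from 660.2 to 220.1 CPM. The 10 macrophage markers summed to 978 CPM in control, with 1 of them (Pf4) at 0, and to 4165 CPM after DPCP, among them C1qa (181 to 1204 CPM), while Cd163 went from 13 to 4 UMIs. The 8 neutrophil markers summed to 1941 and 4064 CPM. Il1r2 stands in both the Langerhans cell list and the neutrophil list. It went from 82.9 to 329.6 CPM and so raised both DPCP sums. Among cells with a UMI of both Cd207 and Epcam, a choice made after the data were seen (52 control and 66 DPCP), Ctsl was 8.25 CPM in control and 636 CPM after DPCP, Cstb 61.0 and 1072 CPM, Ctsb 280.4 and 1531 CPM, Ctsz 193 and 1368 CPM, and Ctsd 90.7 and 265 CPM. Each of these 5 genes rose by the rule within that subset, where C1qa also went from 152 to 1243 CPM. Over the subset Cst3 (4278 to 2140 CPM) had a ratio interval of 0.473 to 0.529 and just missed the rule. Epcam was 699 CPM in control and 282 CPM after DPCP in the subset, so the conditions were not matched for it. The few DPCP cells of the subset with the most Epcam (1138.7 to 1379.5 CPM) had 0 CPM of Ctsl and 334.9 to 599.8 CPM of Ctsb. They had 120.0 to 272.7 CPM of Cstb, 179.9 to 602.9 of Ctsz, 0 to 167.5 of Ctsd and 4854.1 to 11215.7 of Cst3. These cells too were picked after the data were seen. The DPCP cell of the class with the most Epcam (2059.1 CPM) had 0 CPM of Cd207 and so lay outside the subset. It had 0 CPM of Ctsl, 1050.6 of Ctsb, 420.2 of Cstb, 1302.7 of Ctsz, 168.1 of Ctsd and 28785.1 of Cst3. When cells were instead assigned one by one from their markers, 39 control and 28 DPCP cells were left, the same 5 genes rose and the Cst3 log2 ratio was -0.17. The part of the macrophage genes in these changes was not tested.

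Some other lysosomal genes also rose in Langerhans cell-like cells. Of 33 lysosomal hydrolases and membrane proteins measured, 13 rose, 0 fell and 20 did not pass, beside 12.2% higher and 8.78% lower over all genes. They included Acp5 (tartrate-resistant acid phosphatase, 2 to 92 UMIs, ratio 16.4, 4.41 to 137), Lgmn (legumain, a protease that is itself blocked by some cystatins, 89.1 to 795 CPM, ratio 8.93) and Igf2r (the receptor that sorts enzymes to lysosomes, ratio 6.77). The proton pump that acidifies the lysosome had 6 of 14 subunits higher, 0 lower and 8 that did not pass, with the higher ones led by Atp6v0c (186 to 966 CPM, ratio 5.20) and Atp6v1a (ratio 2.80). Of the transcription factors named above, Mitf rose (166 to 629.6 CPM, ratio 3.80) and Tfe3 rose (ratio 2.29), while Tfeb fell (109 to 45.4 CPM, ratio 0.417). MHC class II loading went the other way: 8 of 9 genes fell and 0 rose, with Ciita, the master regulator of the class II genes, at a ratio of 0.208, H2-DMa at 0.264 and Cd74 (invariant chain) from 13149 to 5514 CPM. The intracellular serpins Serpinb6b (1 to 58 UMIs, ratio 20.7, 3.57 to 831) and Serpinb9 (ratio 5.91) rose, 2 of 3 measured. Acp5 and Serpinb6b passed the minimum only through their DPCP level, so the list counts here are descriptions. Other cathepsins did not: 0 of 3 rose or fell.

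Macrophage-like cells held the highest Ctsb, Ctsd, Ctsl and Ctsk levels after DPCP. Ctsl, Cstb and Ctsk rose, 3 of 9 genes measured, and 0 fell, where 10.3% of 7027 genes rose and 4.88% fell. Ctsk is among the 9 only through its DPCP level, with 2 control UMIs. The median log2 ratio of the 9 was 0.31, against 0.05 over all genes tested. The class had 151 control cells, all in cluster 13 (led by Cd209f, Ccl8 and Folr2), and 228 DPCP cells, of which 127 were in cluster 18 (led by Mmp12, Gpnmb and Cxcl5), a cluster with 0 control cells that was named from 3 markers, Pf4 and Fcgr1 among them, and whose C1qa level was 265 CPM.

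Ctsl in macrophage-like cells rose 5.72-fold, with 199 CPM (177 to 221) in control and 1136 CPM (1094 to 1179) after DPCP. Within cluster 13 alone it rose 4.16-fold (3.67 to 4.74) to 827 CPM, and in cluster 18 it was 1436 CPM. Thinned to 1000 UMIs, the share of macrophage-like cells with Ctsl was 16.7% in control and 51.1% after DPCP. The Ctsl rise was thus present within cluster 13 alone.

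Cstb and Ctsk differed by cluster. Cstb rose from 261 to 1165 CPM over the class (ratio 4.46, 4.03 to 4.95), but was 359 CPM in DPCP cells of cluster 13 (ratio 1.37) and 1946 CPM in cluster 18. Ctsk had 2 UMIs in control and 103 after DPCP, a ratio of 34.3 (9.27 to 287), and 94 of the 103 were in cluster 18, where 18 of 127 cells held one and the highest 10% of cells held 94.7%. In cluster 13 Ctsk went from 2 to 9 UMIs, too few for the rule. Cst3 was 1830 CPM in control and 1213 CPM after DPCP (ratio 0.663), Ctsb 2519 and 2547 CPM, and Ctsd 1304 and 1307 CPM. Within cluster 13 Ctsb was higher after DPCP (3461 CPM, ratio 1.37, 1.32 to 1.43), and in cluster 18 it was 1662 CPM.

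The lysosomal list in macrophage-like cells had 6 of 34 genes higher and 0 lower, beside 10.3% higher and 4.88% lower over all genes, among them Cd63 (a membrane protein of lysosomes, 66.4 to 286 CPM, ratio 4.31), Galns (ratio 3.67) and Gla (ratio 3.46), 2 hydrolases. The proton pump had 3 of 14 higher and 0 lower. Tfec, a relative of TFEB, rose, 1 of 4 factors. The 8 neutrophil markers summed to 726 CPM in control and 4482 CPM after DPCP in these cells. Without the cells over a limit of 20 UMIs of S100a8 and S100a9 the same 3 genes rose. With cluster 5 counted as macrophage-like, the same 3 genes also rose. In cluster 5 itself Ctsl rose from 89.9 to 298 CPM (ratio 3.32), while Ctsb was 1973 CPM in control and 1116 CPM after DPCP (ratio 0.566, 0.533 to 0.600). There 1 of 8 genes rose and 0 fell, against 4.08% and 3.95% of 6733 genes.

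**Figure D3:**
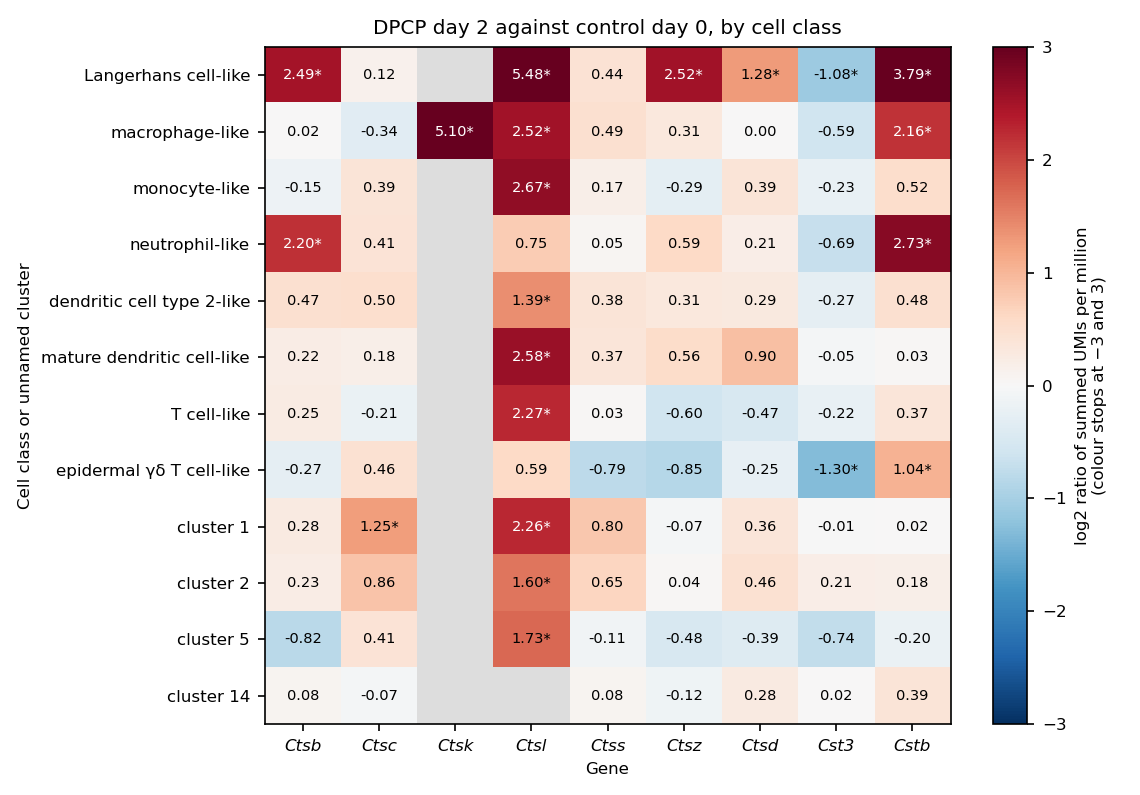
Log2 ratio of DPCP day 2 over control day 0 for each gene (columns) in each class or unnamed cluster (rows). An asterisk marks a gene that rose or fell by the rule, and grey one below the minimum UMIs or CPM. Dendritic cell type 2-like stands for the conventional type 2 class; Ctsl carries the most asterisks and Cst3 the only ones below 0.

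Neutrophil-like cells were the bulk of the DPCP sample, with 111 control and 4908 DPCP cells. Of 8 genes measured, 2 rose and 0 fell, where 10.0% of 5829 genes rose and 12.9% fell. The median log2 ratio of the 8 was 0.50, against -0.26 over all genes tested. Cstb rose 6.64-fold, with 123 CPM (86.1 to 170.1) in control and 815 CPM (803 to 828) after DPCP. Ctsb rose 4.60-fold (3.37 to 6.44), with 137 and 627 CPM. Ctsd was already 676 CPM in control and was 781 CPM after DPCP (ratio 1.16), and Cst3 was 669 and 415 CPM (ratio 0.621).

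The rise came with clusters that control skin nearly lacked. Cluster 3 held 100 of the 111 control cells and 949 DPCP cells, and within it Cstb was 130.3 CPM in control and 113 CPM after DPCP (ratio 0.868, 0.606 to 1.28), while Ctsb still rose from 118 to 259 CPM (ratio 2.19, 1.52 to 3.26). In cluster 0, with 1 control and 1958 DPCP cells, Cstb was 1700 CPM (1669 to 1732), Ctsb 1162 CPM, Ctsd 1135 CPM and Ctsz 464 CPM, the highest of the 5 neutrophil-like clusters for each. That 1 cluster held 39.6% of all Cstb UMIs of DPCP cells. Clusters 8 and 10, with 0 control cells, were between, at 744 and 658 CPM for Cstb, and cluster 6, with 10 control and 786 DPCP cells, was low at 85.6 CPM. Cst3 ran in another order over the DPCP cells, from 689.7 CPM in cluster 3 to 263 CPM in cluster 8. Leaving out the clusters with fewer than 5 cells in 1 condition (clusters 0, 8 and 10 here) left 0 genes past the rule and a Cstb log2 ratio of -0.31.

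**Figure D4:**
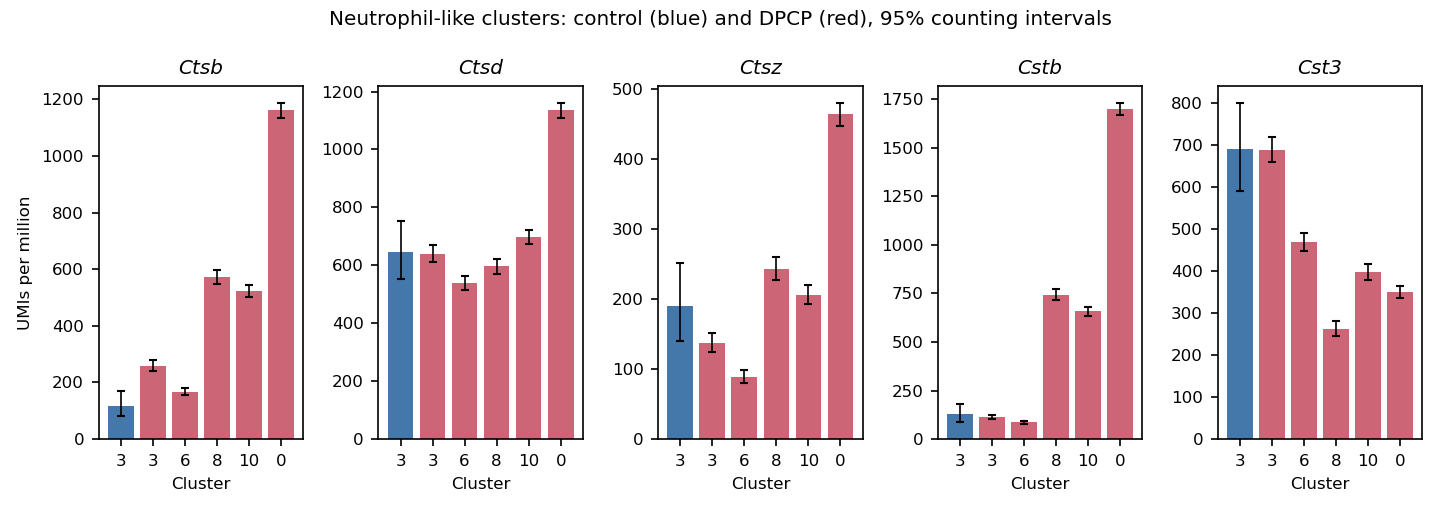
CPM of 5 genes (linear axes from 0) in the neutrophil-like clusters: control cells of cluster 3 in blue, DPCP cells of clusters 3, 6, 8, 10 and 0 in red, with 95% counting intervals. Cluster 0 is highest for Ctsb, Ctsd, Ctsz and Cstb, and cluster 3 is highest for Cst3.

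Neutrophils of the mouse also express stefins, relatives of Cstb. In neutrophil-like cells 5 of them were near 0 in control and reached the minimum only through DPCP cells, which were far more numerous, so no count is drawn from them: Stfa3 (0 to 480 UMIs), Csta3 (1 to 1196, ratio 16.2, 2.90 to 641), Stfa2 (1 to 907, ratio 12.3, 2.20 to 486), Csta2 (3 to 2445, 10.2 to 113 CPM, ratio interval 3.78 to 53.6) and Stfa1 (5 to 2050, ratio 5.56, 2.38 to 17.1). Stfa2l1, the most abundant, was 706 and 1034 CPM (ratio 1.46). These genes are near-identical copies, so the split of UMIs among them is uncertain. Of the serine proteases that cathepsin C activates, 0 passed the minimum level in neutrophil-like cells, and Gzma had 1 and 98 UMIs. The lysosomal list had 7 of 26 genes higher and 2 lower, and the proton pump 4 of 15 higher and 0 lower. Over all genes in this class 10.0% were higher and 12.9% lower. The pump gene Atp6v0d2 had 0 control UMIs and passed the minimum only through DPCP cells, so these counts are descriptions.

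Ctsl did not pass in neutrophil-like cells, at 41.0 and 68.7 CPM (ratio 1.68, 0.957 to 3.25), but it rose from low levels in several other classes and clusters. In monocyte-like cells (222 control and 1059 DPCP) it rose 6.38-fold, with 16.7 CPM (11.4 to 23.5) in control and 106 CPM (101 to 112) after DPCP, the 1 gene of 8 to pass, against 3.48% of 6607 genes higher and 2.97% lower. The Ctsl rise there was also present without cluster 11, most of whose cells held neutrophil RNA. In conventional dendritic cell type 2-like cells (601 and 127) Ctsl rose from 13.3 to 34.9 CPM (ratio 2.62, 1.82 to 3.74), again 1 of 8, against 4.38% of 6719 genes higher and 3.10% lower. In cluster 1 (1193 and 167 cells, led by Retnla and Lyz1) Ctsl rose from 26.4 to 127 CPM (ratio 4.80) and Ctsc from 534 to 1270 CPM (ratio 2.38, 2.27 to 2.49), 2 of 8, where 2.11% of 6385 genes rose and 0.720% fell. In cluster 2 (1050 and 59 cells) Ctsl rose from 16.4 to 49.7 CPM (ratio 3.03), 1 of 8, against 2.02% of 6575 genes higher and 1.81% lower. In cluster 14 (97 and 108 cells, led by Cd300e and Ace) 0 of 7 genes passed, against 1.36% and 1.16% of 4491 genes, and Ctsl had 16 and 23 UMIs, below the minimum.

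Mature dendritic cell-like cells (58 control and 122 DPCP) kept the highest Cst3 of all classes, 9346 CPM in control and 9004 CPM after DPCP (ratio 0.963, 0.937 to 0.991), and Cstb was 434 and 445 CPM. Ctsl had 3 UMIs in control and 51 after DPCP (4.15 to 24.8 CPM, ratio 5.99), the 1 gene of 8 to rise, where 10.4% of 6205 genes rose and 3.92% fell. It dropped below the 50 UMI minimum when cells over the S100a8 and S100a9 limit were left out (log2 ratio 2.01). The neutrophil markers summed to 561 and 6192 CPM in this class. Legumain (Lgmn) rose from 96.8 to 284 CPM (ratio 2.93), among 6 of 26 lysosomal genes higher and 1 lower. Conventional dendritic cell type 1-like cells had 27 DPCP cells, under the minimum for a comparison: Cst3 was 3688 CPM in control and 8552 CPM (8294 to 8816) in those 27 cells, and Ctsd 339.8 and 129 CPM. The own markers of that class summed to 1329 CPM in control and 4592 CPM after DPCP, so its cells were not matched between conditions. Its median control cell had 1722 CPM of Cst3, and the highest 10% of control cells held 44.1% of the Cst3 UMIs. The part of the mix of cells was not tested.

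Of the lymphoid classes, 2 had enough cells to be compared. In T cell-like cells (158 and 142) Ctsl went from 9 to 47 UMIs (5.70 to 27.5 CPM, ratio 4.81, 2.33 to 11.2), the 1 gene of 8 to rise, where 4.90% of 7511 genes rose and 3.59% fell. The T cell-like class also passed 5 of 6 natural killer cell markers, with Gzma and Gzmb beside Foxp3 among its leading genes. It may thus hold other lymphoid cells, and a shift in its mix was not tested. The 8 neutrophil markers summed to 610.4 CPM in control and 10921 CPM after DPCP in this class. Without cells over the S100a8 and S100a9 limit, Ctsl had too few UMIs for the rule (log2 ratio 2.34). Cells of the epidermal gamma-delta T cell-like class (227 and 299), named for the resident T cells of mouse epidermis, had Cstb higher (128 to 263 CPM, ratio 2.05, 1.78 to 2.37) and Cst3 lower (953 to 387 CPM, ratio 0.406, 0.377 to 0.438), where 6.65% of 7644 genes rose and 4.42% fell. Ctsc, whose product activates granzymes, was 429 and 592 CPM there (ratio 1.38), and the granzyme gene Gzmb rose from 8 to 127 UMIs (ratio 12.6, 6.22 to 29.9). The neutrophil markers summed to 619 CPM in control and 15512 CPM after DPCP in this class, and Cd74, a gene of antigen-presenting cells, went from 4007 to 1052 CPM along with 8 of 9 MHC class II loading genes that fell. Without cells over the S100a8 and S100a9 limit (227 and 215 cells) the Cstb log2 ratio was 0.80, no longer past the rule, and that of Cst3 was -1.06. The part of RNA from other cells in these changes was not tested.

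Inhibitor transcripts relative to target transcripts were set out as UMIs of a cystatin per 100 UMIs of the 6 cysteine cathepsins among the listed genes. Other cathepsins, Ctsh and Ctso among them, were not counted, and the values describe RNA and not protein. In Langerhans cell-like cells Cst3 stood at 294 per 100 in control (273 to 317) and 40.8 per 100 after DPCP (39.3 to 42.4), as the summed cathepsins went from 1443 to 4928 CPM. Over 16 alternatives the Cst3 value lay between 278 and 380.0 per 100 in control and between 34.3 and 102 per 100 after DPCP, with the highest of each (380.0 and 102) where cells were assigned one by one. Cstb in those cells went from 5.85 to 23.7 per 100. Among the classes and clusters compared, mature dendritic cell-like cells had the most Cst3 in both conditions, 529.6 and 381 per 100, and macrophage-like cells the least, 29.6 and 15.8 per 100. Neutrophil-like cells went from 115 (93.4 to 142) to 34.1 per 100 for Cst3 and from 21.2 (14.4 to 30.5) to 67.0 per 100 for Cstb, while within cluster 3 the values for Cst3 were 119.9 and 100.3 per 100 with intervals that overlap. The type 2 dendritic class had 111 and 69.5 Cst3 UMIs per 100, and Cstb stayed at 4.50 and 4.70. Over 15 alternatives the Cst3 values ranged from 57.4 to 123 in control and 30.1 to 101 after DPCP in neutrophil-like cells, and from 78.2 to 164 and 51.2 to 143 in the type 2 dendritic class. In cluster 14 (82.3 and 81.1) and T cell-like cells (52.1 and 45.9) the Cst3 intervals overlap between conditions.

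**Figure D5:**
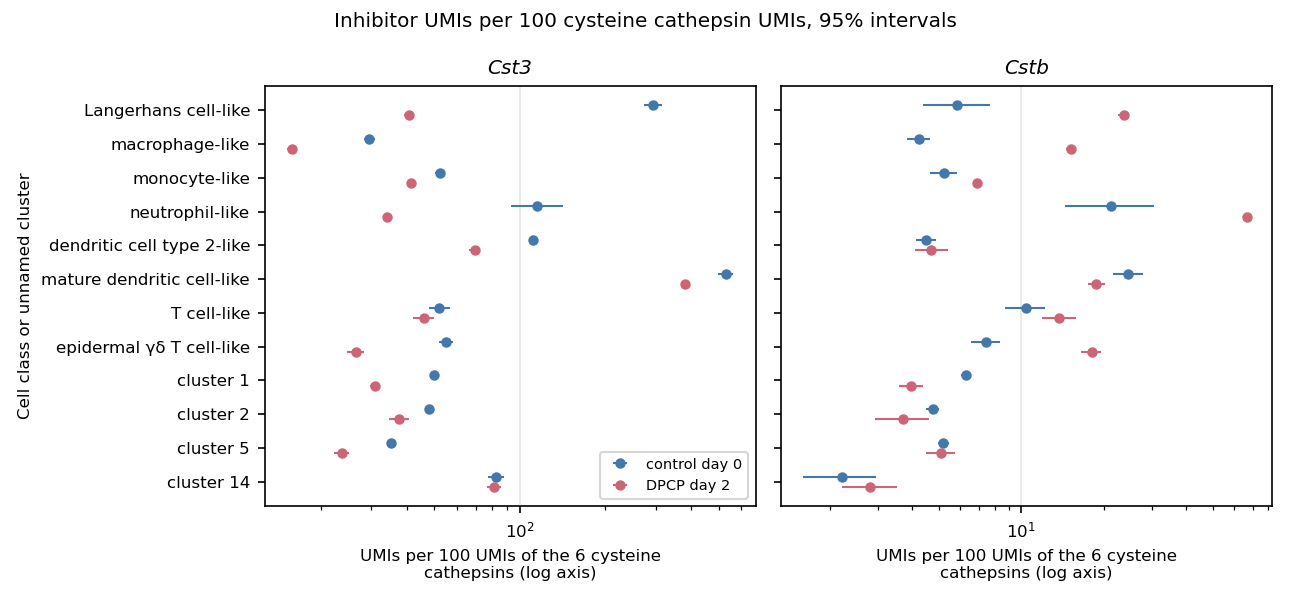
UMIs of Cst3 (left) and Cstb (right) per 100 UMIs of the 6 cysteine cathepsins (log axes), by class or unnamed cluster, control in blue and DPCP in red, with 95% intervals. The Langerhans cell-like row has the widest gap for Cst3, 294 against 40.8 per 100.

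Over all kept cells, where the mix of cells differed between the conditions, Ctsl (36.2 to 151 CPM, ratio 4.18, 3.97 to 4.39) and Cstb (172 to 546 CPM, ratio 3.17) rose, 2 of 8 genes, against 12.6% of 7085 genes higher and 7.85% lower. Neutrophil-like cells held 60.7% of the Cstb UMIs of DPCP cells and 0.403% of those of control cells. For Ctsl the DPCP UMIs were split over macrophage-like (34.5%), neutrophil-like (18.5%), monocyte-like (17.5%) and Langerhans cell-like cells (15.6%). Ctss (1253 and 898 CPM) and Cst3 (1841 and 1352 CPM) were lower over all cells, with ratios of 0.717 and 0.734, although Ctss was higher in Langerhans cell-like, macrophage-like and monocyte-like cells (ratios 1.36, 1.41 and 1.13). Of the MHC class II loading genes 7 of 9 fell over all cells and 0 rose.

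Across 27 class-by-condition groups with at least 50 cells, the genes whose log2(CPM + 1) profile was most like a member's were Cd68 for Ctsb (Pearson r 0.866), Fcgr2b for Ctsc (0.896), Timp2 for Ctsd (0.880), Cxcl5 for Ctsk (0.794), Slc37a2 for Ctsl (0.793), Dusp3 for Ctss (0.926), Cyfip1 for Ctsz (0.856), Nectin1 for Cst3 (0.837) and Sgpl1 for Cstb (0.864), out of 7101 genes. The proton pump gene Atp6v0c came second for both Ctsl (0.769) and Cstb (0.849). Among the members, Ctsc and Ctss had r of 0.78, Ctsb and Ctsl 0.73, and Ctsd and Cst3 -0.57. Groups are the named classes and unnamed clusters in each condition and all come from 1 library, so these are descriptions.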

How the data were processed

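The submitters' processing notes name Cell Ranger 6.1.1 and Seurat 4.0.1 with the mm10 build, and per the file headers the deposited matrix was written by Cell Ranger 7.0.0. The deposited values are UMI counts per gene and cell barcode, not normalized, for 1 pooled library of 14146 barcodes. Barcodes were assigned to a condition by their deposited suffix, and the tag of that condition was the larger in 100.0% of control and 99.9% of DPCP barcodes. The other tag held 2.18% and 13.9% of tag UMIs. UMIs summed to 54397154 in 6280 control barcodes and 53748585 in 7866 DPCP barcodes.

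The filter removed barcodes below 200 genes or above 10% mitochondrial UMIs. Scrublet called 3 of 12558 cells doublets, too few to count as working, so leaving out the 5% highest scores was an alternative. The 12555 cells were clustered with scanpy 1.11.5 and leidenalg 0.10.2 (2000 variable genes without the 9 members, 30 components, 15 neighbours, resolution 1) into 24 clusters. A cluster took a "-like" name from at least 3 listed markers found in at least 10% of its cells at 2-fold or more over the rest, unless other markers led it or 2 names tied. These names were rebuilt here and may differ from the study's.

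UMIs were summed per class and condition, with exact Poisson intervals on levels and exact conditional binomial intervals on ratios (scipy 1.17.1), checked on simulated data. With 1 tagged sample per condition no p-value was computed, and UMIs of 1 pool carry no replicate error. Members and lists were chosen with earlier results of these data known. The text names every member, genes of the chosen pathway lists, and the genes with the most similar profile. Alternatives were 15 planned and 3 added after seeing the data, with TMM scaling from edgeR 4.0.16.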

Additional observations from a re-analysis of the deposited data

Results flagged for a closer look

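Ctsb moved in opposite directions between classes, with counting intervals that exclude 1 on both sides. Its log2 ratio was 2.49 in Langerhans cell-like and 2.20 in neutrophil-like cells, against -0.82 in cluster 5, the unnamed cluster with 8 of 10 macrophage markers. Ctsz did the same, with a log2 ratio of 2.52 in Langerhans cell-like cells against -0.60 in T cell-like and -0.85 in epidermal gamma-delta T cell-like cells. The negative values of both genes did not pass the rule for a fall. The difference between classes was not tested, since each condition is 1 sample. The neutrophil markers were higher after DPCP in all of these classes, and their part was not tested.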

How the results depend on the processing

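The 5 genes that rose in Langerhans cell-like cells kept that call in 16 of 16 alternatives, with log2 ratios of 5.23 to 6.42 for Ctsl, 3.71 to 4.13 for Cstb, 2.26 to 2.67 for Ctsb, 2.46 to 2.89 for Ctsz and 1.22 to 1.60 for Ctsd, while Cst3 (-1.29 to -0.17) kept its call in 13 of 16. For the alternatives the minimum of 50 cells in each condition was lowered. The mean over cells had no counting interval, so its calls and counts rest on the 2-fold limit alone. The count of genes past the rule moved as follows, and where no construction is named the cause was not tested. Without clusters of fewer than 5 cells in 1 condition it was 0 in neutrophil-like cells, where the Cstb log2 ratio reversed to -0.31, and 1 in macrophage-like cells and over all kept cells. In neutrophil-like cells it was 5 with the members kept among the clustering genes and 5 when cells were assigned one by one from their markers. In mature dendritic cell-like cells it was 0 without the 5% highest doublet scores, with cells assigned one by one and without cells holding neutrophil RNA, and 2 as a mean over cells. In T cell-like cells it was 0 with cells assigned one by one, and 0 with at least 80% own tag or without cells holding neutrophil RNA, where fewer than 50 UMIs of Ctsl were left. In epidermal gamma-delta T cell-like cells it was 1 without mitochondrial and ribosomal protein genes, as a mean over cells and without cells holding neutrophil RNA. The background share moved with the minimum of summed UMIs: in cluster 14 to 2.10% higher and 3.17% lower at a minimum of 10, and at 200 to 0.374% lower in cluster 14, 1.94% lower in T cell-like cells, 1.05% higher in cluster 2, 2.26% higher in cluster 5, 2.71% higher in type 2 dendritic cells and 3.23% lower in macrophage-like cells. No T cell-like class was found under the stricter cell filter or without the highest doublet scores. TMM scaling shifted all neutrophil-like log2 ratios by 0.35, with 3 genes past the rule there. No paired analysis was possible because each condition is 1 tagged sample. Depth limits Ctsk, with 59 control UMIs in all kept cells.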
